A study of Mus musculus with 4 samples.

Results

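Accessible chromatin of the extensor digitorum longus (EDL), a fast muscle, was compared with that of the soleus (Sol), a slow muscle of the same lower leg. The comparison used the 20000 peaks with the highest Peak Score in each of these muscles, 40000 of the 120839 peaks listed for the 4 muscles of the series. The data are assay for transposase-accessible chromatin with sequencing (ATAC-seq), in which a transposase cuts and tags open DNA, so that a peak marks a stretch where tags pile up. Both libraries came from sedentary wild-type mice, C57BL/6 in the labels and male C57BL/6J in the study's methods, with no genetic change or treatment in either muscle, and each library is described as pooled without a number of animals. Muscles were snap frozen and pulverised before transposition. The animals' age is not given in the labels. Quadriceps (Quad, mostly fast) and diaphragm (Dia, mixed) from the same kind of mice were used only as lists in which EDL and Sol peaks could be looked up. With 1 library per muscle there is no spread between animals to set a difference against, so no p-value is given, every difference describes these libraries, and the intervals below cover counting error alone. In whole muscle a peak can differ because the cells' chromatin differs or because a cell type makes up another share of the nuclei, and these cannot be told apart here.

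Fast and slow fibres carry separate sets of contractile proteins. Fast fibres use fast isoforms of myosin, troponin and the calcium pump and rely on glycolysis and stored glycogen. Slow fibres use slow and cardiac isoforms of the same proteins and rely on mitochondria. Much of this identity is held in enhancers, short stretches of open chromatin, often far from the gene they act on, to which transcription factors such as those of the MEF2, MyoD and MAF families bind.

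Sequences are shown first for 9 peaks that carry the contrast between the muscles and that are referred to again with their values. They are the plus strand of the RefSeq assembly GRCm38.p6, the assembly behind mm10, over the whole peak as listed. Capitals mark matches on either strand to the motif named with each peak. The E-box CAGCTG is a site of MyoD-type factors, GGAATG of TEAD factors and TGCTGAC of MAF factors, whereas MEF2 and SRF sites are A- and T-rich motifs named here without letters. A match is a description of the letters and not evidence of binding.

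The first set holds EDL peaks. The peak near 2310065F04Rik, a long noncoding RNA gene between Myh3 and Myh2, is at chr11:67139519-67139727 and has 1 E-box.
2310065F04Rik: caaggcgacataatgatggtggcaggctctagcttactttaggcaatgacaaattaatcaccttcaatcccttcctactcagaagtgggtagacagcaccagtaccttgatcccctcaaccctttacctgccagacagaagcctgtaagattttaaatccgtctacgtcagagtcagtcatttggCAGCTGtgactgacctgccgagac
The promoter peak of Myh4, the fastest adult myosin heavy chain, is at chr11:67237619-67237827, with a MEF2 match, an SRF match and an E-box.
Myh4: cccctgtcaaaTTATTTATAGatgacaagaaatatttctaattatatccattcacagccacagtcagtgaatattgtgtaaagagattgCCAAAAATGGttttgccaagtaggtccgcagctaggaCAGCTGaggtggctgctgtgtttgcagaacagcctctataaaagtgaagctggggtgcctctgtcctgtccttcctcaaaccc
The peak in intron 1 of Tnnc2, fast troponin C, is at chr2:164778999-164779207, with a MEF2 match between 2 E-boxes.
Tnnc2: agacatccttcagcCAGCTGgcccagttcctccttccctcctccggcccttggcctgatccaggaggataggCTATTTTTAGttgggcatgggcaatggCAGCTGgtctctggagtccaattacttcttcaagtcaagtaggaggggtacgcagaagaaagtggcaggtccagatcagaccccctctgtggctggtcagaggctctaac
The intergenic peak upstream of Mef2d, itself a MEF2 factor, is at chr3:88138351-88138559, with a MAF match and an E-box.
Mef2d: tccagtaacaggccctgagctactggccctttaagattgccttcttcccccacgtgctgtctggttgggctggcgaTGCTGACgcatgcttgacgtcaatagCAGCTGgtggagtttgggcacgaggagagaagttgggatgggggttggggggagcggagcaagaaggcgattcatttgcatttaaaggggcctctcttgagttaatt
The peak in intron 67 of 191 of the titin gene Ttn is at chr2:76807422-76807630, is assigned to Plekha3 by the nearest start site, and has a MAF match and an SRF match. The MAF match overlaps AAGGTCA, a nuclear receptor motif that is not marked separately.
Plekha3: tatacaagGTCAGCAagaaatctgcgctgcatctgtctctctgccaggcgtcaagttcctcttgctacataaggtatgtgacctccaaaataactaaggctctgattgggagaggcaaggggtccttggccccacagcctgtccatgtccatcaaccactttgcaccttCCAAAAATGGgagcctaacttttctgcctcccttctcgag

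The second set holds Sol peaks. The peak in intron 1 of Actn2, alpha-actinin 2 of the Z-disc, is at chr13:12337887-12338093, with 1 TEAD match.
Actn2: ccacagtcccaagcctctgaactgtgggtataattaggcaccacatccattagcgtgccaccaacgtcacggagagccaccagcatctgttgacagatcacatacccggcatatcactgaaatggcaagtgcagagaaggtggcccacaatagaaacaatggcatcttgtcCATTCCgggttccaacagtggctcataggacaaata
The promoter peak of Myl3, the slow and ventricular essential myosin light chain, is at chr9:110763440-110763646, with 2 TEAD matches and an SRF match.
Myl3: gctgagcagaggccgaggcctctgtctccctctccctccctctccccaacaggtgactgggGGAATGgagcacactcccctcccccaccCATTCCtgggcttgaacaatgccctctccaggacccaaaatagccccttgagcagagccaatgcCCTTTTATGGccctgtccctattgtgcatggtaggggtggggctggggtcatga
The promoter peak of Myom3, a myomesin of the M-band, is at chr4:135759545-135759751, with 1 MEF2 match.
Myom3: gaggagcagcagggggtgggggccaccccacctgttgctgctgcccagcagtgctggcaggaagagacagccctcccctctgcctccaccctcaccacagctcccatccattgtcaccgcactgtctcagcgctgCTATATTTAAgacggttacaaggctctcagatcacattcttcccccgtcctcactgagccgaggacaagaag
The intergenic peak near St3gal5, a ganglioside synthase, is at chr6:72076621-72076827, with 1 MEF2 match.
St3gal5: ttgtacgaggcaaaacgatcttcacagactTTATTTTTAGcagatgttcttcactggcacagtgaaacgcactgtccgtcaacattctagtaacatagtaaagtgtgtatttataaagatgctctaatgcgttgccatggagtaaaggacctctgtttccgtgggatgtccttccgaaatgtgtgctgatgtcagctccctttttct

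The E-box and TEAD motifs are common in promoter sequence, and the MEF2, SRF and MAF motifs less so. Of 32544 distinct RefSeq promoter windows, 1.86% held the MEF2 motif, 16.4% the E-box, 14.6% the TEAD motif, 1.64% the SRF motif and 4.65% the MAF motif.

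The libraries were similar in depth and list structure. The EDL list held 30136 peaks and the Sol list 28784, so the peaks used were 66.4% and 69.5% of the lists. Depth inferred from the steps in the scores was 103.9 M tags in EDL and 104.6 M in Sol if scores are scaled to 10 M tags. The lowest peak used held 58 tags in both muscles and the median peak 94 tags in both. Promoters, which run from 1 kb before the transcription start site (TSS) to 100 bp past it, made up 41.2% of the EDL peaks and 41.8% of the Sol peaks. Of the 12 genes fixed as markers of muscle fibres, among them the creatine kinase gene Ckm, the desmin gene Des and Ttn, all 12 held a peak, with 45 peaks in EDL and 42 in Sol.

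The first comparison asked how much open chromatin is listed in both muscles. Peaks of EDL and Sol that overlapped by at least 1 bp were joined into 25191 regions, of which 14808 held a peak of both muscles (58.8%, 95% Wilson interval 58.2% to 59.4%). The rest were 5192 peaks of EDL alone and 5191 of Sol alone, called here the EDL side and the Sol side. These peaks were low in their lists, at a median percentile of 24.2 for the EDL side and 22.1 for the Sol side, with a median of 72 and 71 tags. Of the EDL side, 22.6% (21.5% to 23.8%) overlapped a Sol peak that was listed below the limit of 20000, and 21.8% had a Sol peak within 1 kb without overlap. On the Sol side 37.8% (36.5% to 39.1%) overlapped an EDL peak below the limit, and 19.7% had an EDL peak within 1 kb without overlap. No peak of the other whole list lay within 1 kb for 55.6% of the EDL side (2886 peaks) and 42.5% of the Sol side (2205 peaks).

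High-ranked peaks were nearly always listed in both muscles. Of the 1000 highest EDL peaks, 98.3% (97.3% to 98.9%) overlapped a peak of the whole Sol list, and of the 1000 highest Sol peaks 98.1% (97.1% to 98.8%) overlapped one of the whole EDL list. These shares fell to 63.1% (61.8% to 64.5%) and 68.5% (67.2% to 69.8%) for the lowest 5000 of the 20000. A peak on 1 side therefore means that none was called at that place among the other muscle's 20000, and not that the DNA was closed.

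Peaks of the EDL and Sol sides lay away from promoters. Promoters made up 17.3% of the EDL side (16.3% to 18.4%) and 19.6% of the Sol side (18.5% to 20.7%), against 49.6% of the shared EDL peaks and 49.5% of the shared Sol peaks. Intragenic peaks were 50.9% of the EDL side and 46.9% of the Sol side. More than 50 kb from the nearest TSS lay 21.6% of the EDL side and 22.8% of the Sol side, against 12.1% of the shared peaks of either muscle.

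The highest peaks of each side were then named. Outside promoters, and with no peak of the other whole list within 1 kb, the highest-scored EDL peak lay in intron 1 of Brd2, a bromodomain protein that binds acetylated histones, at percentile 92.1. The Mef2d peak shown above followed at percentile 91.7, and the nearest Sol peak was 4816 bp away. Next came a peak 2698 bp upstream of Cirbp, a cold-inducible RNA-binding protein, at percentile 90.8, and intronic peaks of the scaffold gene Dlgap4 at 88.4 and the co-chaperone gene Dnajb5 at 87.5. The Ttn intron peak, assigned to Plekha3, ranked at percentile 87.9, with no Sol peak within 116239 bp. It was also listed in Quad, at percentile 77.8, and not in Dia. The peaks at Brd2, Mef2d, Dlgap4 and Dnajb5 had no overlapping peak among the 20000 of Quad or of Dia. The Cirbp peak was listed in Quad, at percentile 80.0, and in Dia, at 92.6, so there it was Sol that lacked the peak.

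On the Sol side the highest such peak lay in intron 1 of Fhl3, a LIM protein of muscle, at percentile 90.2, 1789 bp from the nearest EDL peak. It was followed by intron 1 of the noncoding RNA gene Lncpint at 89.9, a peak 9940 bp upstream of the microRNA gene Mir23a at 89.6, and a peak 8214 bp upstream of Nr1d1, which encodes the clock repressor REV-ERB alpha, at 88.1. Intron 1 of Ahnak ranked at 86.4, and intron 1 of Adssl1, a muscle enzyme of the purine nucleotide cycle, at 85.7. The peaks at Lncpint, Mir23a and Nr1d1 were also listed in Quad and in Dia, so for these it was EDL that lacked the peak. The Ahnak peak was listed in Quad, at percentile 83.5, and not in Dia. The Fhl3 and Adssl1 peaks had no overlapping peak in Quad or in Dia.

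The second comparison asked how the regions listed in both muscles were ranked. Spearman's rho between the percentiles was 0.831 over the 14808 shared regions, 0.909 over the 7341 at promoters, 0.669 over the 4400 inside genes and 0.691 over the 3067 between genes, as a description across regions that share a library. The median difference, EDL minus Sol, was -0.42 percentile points. A difference of 20 points or more was found in 1400 regions towards EDL (9.45%) and 1738 towards Sol (11.7%). The regions nearest that limit differed by 20.005 points just inside and 19.985 just outside on the EDL side, and by -20.0075 and -19.9925 on the Sol side. Promoters differed less often, with 5.39% higher in EDL and 7.86% higher in Sol, than regions inside genes, with 13.7% and 15.9%.

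Most of these rank differences were small in tags. The median ratio of EDL to Sol tags was 1.37 in the 1400 regions higher in EDL (quartiles 1.29 and 1.49) and 0.726 in the 1738 regions higher in Sol (quartiles 0.673 and 0.770). Exact 95% Poisson intervals of the tag numbers in EDL and Sol did not overlap in 427 shared regions higher in EDL (2.88%) and 390 higher in Sol (2.63%). They did not overlap in 325 of the 1400 regions ranked higher in EDL (23.2%) and 349 of the 1738 ranked higher in Sol (20.1%). The other regions of these sets were not distinguishable from equal tags by this measure at this depth.

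**Figure D1:**
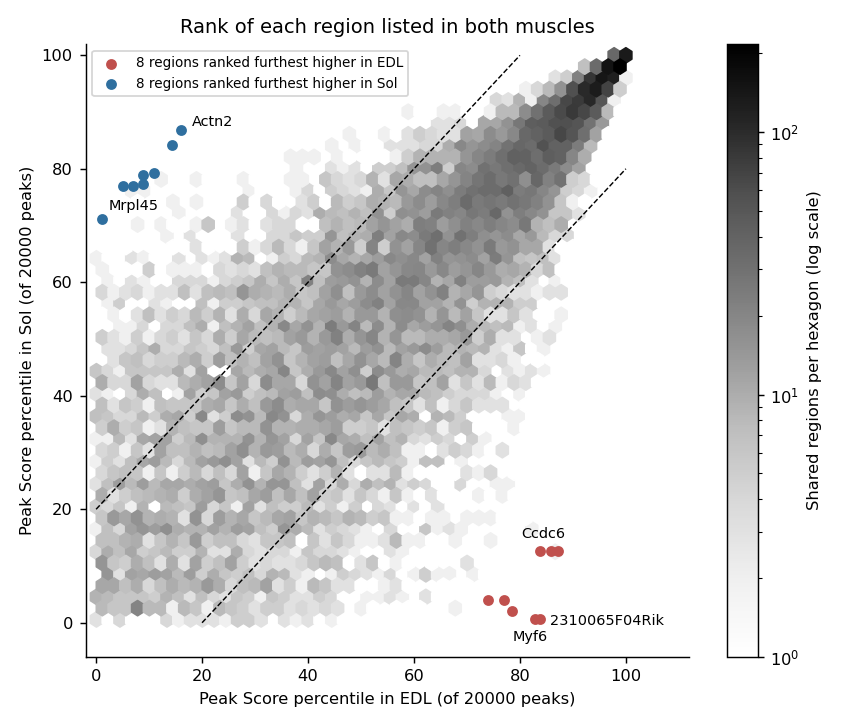
Each hexagon counts shared regions by their Peak Score percentile in EDL (horizontal axis) and in Sol (vertical axis), on a logarithmic grey scale, with dashed lines at a difference of 20 points. The 8 regions ranked furthest higher in each muscle stand far from the diagonal, near 2310065F04Rik at percentiles 83.7 and 0.58 and in Actn2 at 16.1 and 86.9.

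The shared regions furthest apart towards EDL lay at loci of fast muscle and of other genes. The region near 2310065F04Rik held 155 tags in EDL (Poisson interval 132 to 181) and 58 in Sol (44.04 to 74.98), at percentiles 83.7 and 0.58. It was also listed in Quad, at percentile 81.1, and not in Dia. A region at exon 35 of 45 of Ptprq, assigned to the neighbouring myogenic regulator gene Myf6, held 152 tags in EDL and 58 in Sol. The regions assigned to Itga2b, inside intron 6 of Gpatch8, and to Gm46545, Trim24, Platr7, Ccdc6 and Gm45923, all intergenic, held between 128 and 170 tags in EDL and between 59 and 65 in Sol. None of these 8 regions had overlapping intervals, and all 8 were listed in Quad. Those assigned to Myf6, Itga2b, Trim24, Platr7 and Ccdc6 were also listed in Dia, and the others were not. Of all shared EDL peaks, 86.1% overlapped a Quad peak and 81.7% a Dia peak.

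All 4 shared regions assigned to Myf6 ranked higher in EDL by more than 20 points. The promoter region of Myf6 was at percentile 55.9 in EDL and 4.1 in Sol, the region about 5 kb upstream at 60.7 and 26.6, and the region 73729 bp upstream at 43.5 and 11.1, beside the Ptprq exon at 82.8 and 0.58. The number of Myf6 peaks was 4 in both muscles, so its difference showed only in rank.

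Towards Sol, the Actn2 intron shown above held 166 tags in Sol (142 to 193) and 67 in EDL (51.9 to 85.1), at percentiles 86.9 and 16.1. It was listed in Dia, at percentile 65.6, and not in Quad. Intron 4 of Micu2, a regulator of mitochondrial calcium uptake, held 155 tags in Sol and 66 in EDL. The regions assigned to Mrpl45, Tank, St3gal5, Ddx10 and Ube2u held between 122 and 139 tags in Sol and between 59 and 63 in EDL, and the last lies in intron 4 of Ror1. Poisson intervals did not overlap in any of these 7 regions. All 7 were listed in Dia and 3 of them in Quad. Of all shared Sol peaks, 81.7% overlapped a Dia peak and 86.2% a Quad peak.

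Counts of peaks per gene addressed which genes had more open regions in one muscle. Each peak was counted under its Gene Name, the gene with the nearest TSS in the authors' annotation. Of 12808 genes with a peak in either muscle, 2794 had more peaks in EDL (21.8%), 2835 had more in Sol (22.1%) and 7179 had equal numbers (56.1%). At least 2 more peaks in EDL were held by 569 genes (4.44%), and at least 2 more in Sol by 561 genes (4.38%). These are the shares against which the counts of named genes and gene lists below are to be read.

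Towards EDL, the 12 genes with the largest difference began with the noncoding gene A330074K22Rik, with 15 peaks in EDL and 6 in Sol, and Maf, with 11 and 2. Maf encodes a large MAF transcription factor of the family that includes activators of fast myosin genes. Its 11 EDL peaks reached from 1049 bp upstream of the TSS to 468021 bp downstream, the last inside the neighbouring gene Wwox, and 1 of the 11 lay within 50 kb of the TSS, as did 1 of the 2 Sol peaks. In the whole lists Maf had 14 EDL peaks and 9 Sol peaks, so part of the Sol peaks ranked below the limit. Ccdc6, a coiled-coil protein, had 9 peaks in EDL and 1 in Sol, and Dkk3, a secreted protein of the dickkopf family, 7 and 1. Cacnb4, a calcium channel subunit, had 7 and 1. Acvr2a, a receptor for activin and myostatin, had 7 and 2 (11 and 9 in the whole lists, and 1 in each within 50 kb of the TSS). Lpin1, a phosphatidate phosphatase, had 8 and 3 (8 and 6 in the whole lists). Eif4g3, a translation initiation factor, had 8 and 3, and Ninj2, a cell adhesion protein, 11 and 5. The noncoding genes Mir1904 (12 and 6, but 16 in each muscle in the whole lists), Gm1968 (8 and 3) and 9530091C08Rik (8 and 3) completed the set.

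Towards Sol, the list began with 2010111I01Rik, an aminopeptidase gene that RefSeq names Aopep, with 5 peaks in EDL and 14 in Sol, and Plpp3, a lipid phosphatase of the cell surface, with 9 and 16. Rad51b, a recombination gene, had 3 and 9. Kdr, the VEGF receptor of endothelial cells, and Tbc1d4, which governs insulin-stimulated glucose transporter traffic, each had 3 and 8. In the whole lists Kdr had 10 and 12. Asap1, a GTPase regulator, had 6 and 11, and Homer2, a scaffold of calcium signalling, 0 and 5. The predicted protein-coding gene Gm5820 (1 and 7) and the noncoding genes A230009B12Rik (5 and 10), Gm20125 (2 and 7) and Gm30173 (3 and 8) were also in the set. Among the 10000 highest peaks Plpp3 had 4 in each muscle and Homer2 none in either.

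**Figure D2:**
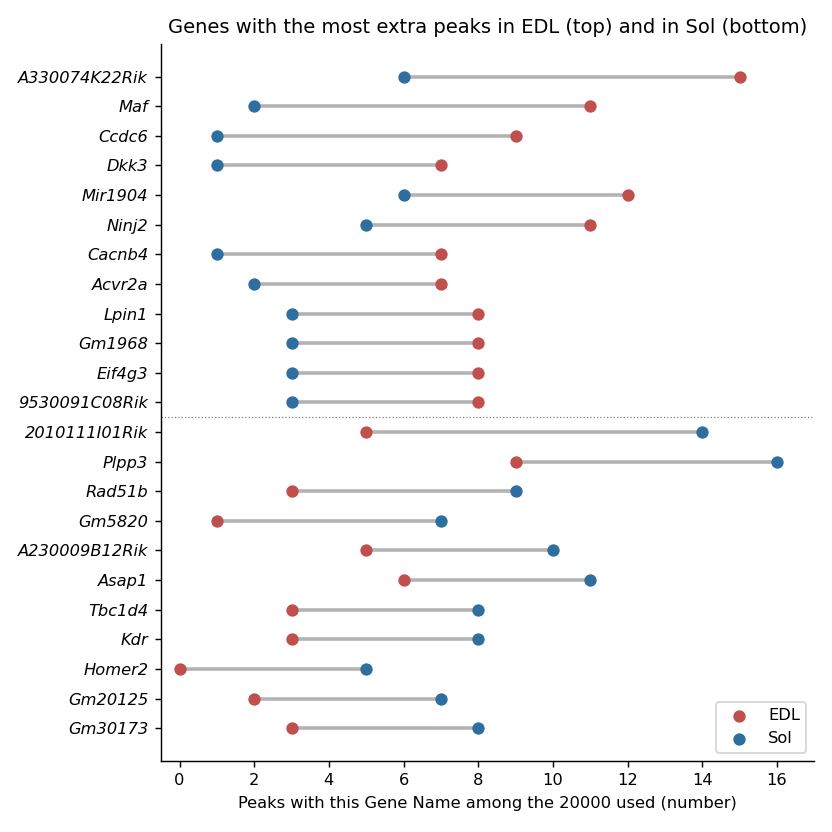
The number of peaks (horizontal axis) among the 20000 of EDL and of Sol is plotted for the 12 genes with the most extra peaks in EDL, above the dotted line, and 11 of those with the most in Sol, below it, with a grey line joining both muscles of a gene. Maf stands at 11 peaks in EDL and 2 in Sol, and Homer2 at 0 and 5.

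The Gene Name is not always the gene that holds the peak. Among intragenic peaks with a RefSeq gene around them, the Gene Name was another gene for 25.5% in EDL and 25.2% in Sol. Counted under the gene that holds the peak, an alternative added after the data were seen, Mir1904 had 0 EDL peaks and 1 Sol peak, because its peaks lie in Pde4d, and 9530091C08Rik, whose peaks lie in Rora, had 1 and 0. Rad51b stood at 10 and 15 and Gm5820 at 4 and 5 in that count. Maf stood at 10 and 2.

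At Homer2 the 5 Sol peaks were low, at percentiles of 4.1 to 48.1, and 1 of them overlapped an EDL peak below the limit.

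Genes listed as fast-fibre contractile and calcium genes had more peaks in EDL, and those listed as slow-fibre more in Sol. The lists were written with earlier results of these data known, so their counts describe the lists and are not independent evidence of direction. Of 16 fast-fibre genes, 14 held a peak, with 35 peaks in EDL and 23 in Sol. Of the 14, 7 had more peaks in EDL and 2 more in Sol, against 21.8% and 22.1% of all genes, which were not matched for their number of peaks, and 4 had at least 2 more in EDL and 0 in Sol. Of 18 shared regions at these genes, 9 ranked 20 points or more higher in EDL and 1 in Sol, with a median difference of 16.1 points, against -0.42 over all shared regions.

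The fast myosin light chain gene Myl1 had 9 peaks in EDL and 5 in Sol, but 9 and 8 in the whole lists. Its promoter peak was at percentile 79.9 in EDL and 39.3 in Sol, and a region in intron 1 at 59.2 and 19.1. EDL peaks 475 bp upstream of the TSS (percentile 64.2) and 1339 bp downstream (76.3) had no Sol peak, even in the whole Sol list. Mylk2, the kinase that phosphorylates the regulatory light chain in skeletal muscle, had 5 and 2. A peak in exon 3 of Mylk2 at percentile 86.5 and peaks 6928 and 5772 bp upstream at 71.0 and 77.4 had no Sol counterpart, whereas a region in intron 3 was high in both, at 89.2 in EDL and 86.0 in Sol. All 5 EDL peaks of Mylk2 were listed in Quad and none in Dia.

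Tnnc2 had 3 EDL peaks and 1 Sol peak. The Tnnc2 promoter was at percentile 84.0 in EDL and 62.2 in Sol, and the intron 1 peak shown above at 77.0 in EDL alone. Myom2, a myomesin of fast fibres, had 5 peaks in EDL and 3 in Sol. Of the EDL peaks of Myom2, the peak 94646 bp from the TSS was at percentile 84.3 against 25.1 in Sol. Single peaks in EDL with no Sol peak lay at the Myh4 promoter (percentile 76.3), in intron 1 of the fast myosin-binding protein gene Mybpc2 (82.5) and in intron 1 of Actn3, the fast alpha-actinin (69.8). Tnnt3, fast troponin T, went the other way with 0 peaks in EDL and 1 in Sol, and Tpm1, a tropomyosin, had 3 and 4.

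Of 18 genes in the slow-fibre list, 16 held a peak, with 23 peaks in EDL and 49 in Sol. Of the 16, 12 had more peaks in Sol and 1 more in EDL, and 10 had at least 2 more in Sol and 0 in EDL. In shared regions the median difference was -10.9 points, with 5 of 16 regions ranked 20 points or more higher in Sol and 1 in EDL.

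Actn2 had 2 peaks in EDL and 6 in Sol. Besides the shared intron 1 region, Sol peaks of Actn2 at 968 and 15661 bp downstream of the TSS were at percentiles 65.1 and 74.5. A peak at the Actn2 promoter was in the EDL list alone, at percentile 32.6. Myl3 had 0 and 3, at the promoter (percentile 72.4) and at 2 places in intron 1 (75.1 and 68.2), with no peak of the whole EDL list and none in Quad or Dia. Atp2a2, the slow-fibre and cardiac calcium pump SERCA2, had 1 and 3. Its promoter region was at percentile 21.1 in EDL and 69.4 in Sol, and a Sol peak 8564 bp upstream of Atp2a2 was at 77.7. Myom3 had 2 and 5, with the promoter peak shown above at 57.5 and an intron 1 peak at 70.0. Casq2, the slow and cardiac calsequestrin, had 1 and 4 (3 and 4 in the whole lists), and Myl2, the slow regulatory light chain, 1 and 3. Csrp3, Myh7, which encodes the slow myosin heavy chain, and Myh7b each had 0 and 2. Ankrd2, a stretch-responsive protein, was the exception, with 3 in EDL and 2 in Sol. The 2 Myh7 peaks of Sol lay 9317 and 10127 bp upstream of the TSS at percentiles 38.1 and 28.0.

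**Figure D3:**
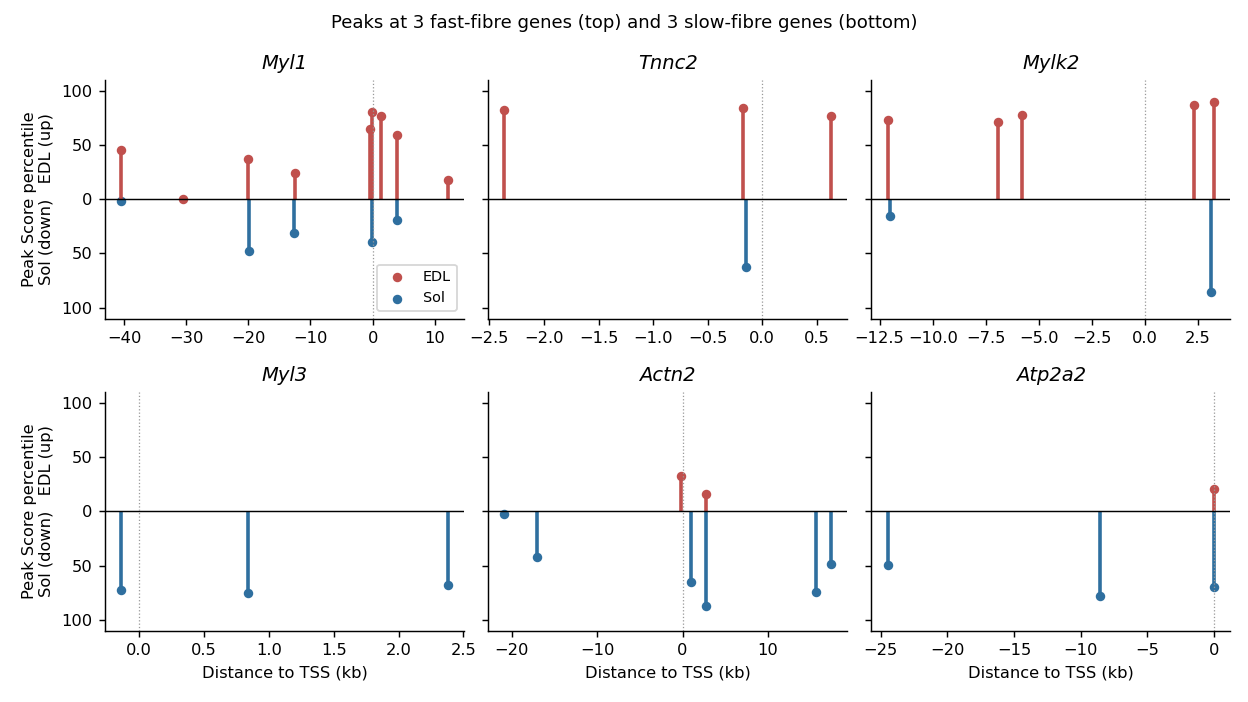
Each line is a peak at its distance to the TSS in kb (horizontal axis), with its Peak Score percentile drawn upward for EDL and downward for Sol. Shown are Myl1, Tnnc2 and Mylk2 of the fast-fibre list and Myl3, Actn2 and Atp2a2 of the slow-fibre list. At Mylk2 the exon 3 peak at percentile 86.5 is in EDL alone, and at Myl3 all 3 peaks are in Sol alone.

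Regulators of fibre type were counted next. Of 17 fast-fibre regulators, 16 held a peak, with 56 peaks in EDL and 39 in Sol, 9 genes with more in EDL and 3 with more in Sol. Besides Maf, Eya4, a coactivator of homeobox factors, had 7 and 3, Tbx15, a T-box factor of glycolytic fibres, 6 and 4, and Eya1, a coactivator of the same family, 3 and 1. The Tbx15 promoter peak (percentile 59.2) and intron 1 peaks at 62.2 and 54.2 were in EDL and Quad and not in Sol or Dia. Dach1 and Six4 had 1 peak in EDL and 3 in Sol. Eya4 had 1 peak fewer in EDL than in Sol when peaks were kept within 50 kb of the TSS or among the 10000 highest, and 10 in each muscle in the whole lists, and the list as a whole then had 31 and 28 peaks within 50 kb.

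The 28 slow-fibre and oxidative regulators, of which 26 held a peak, had 108 peaks in EDL and 103 in Sol, with 11 genes higher in EDL and 9 in Sol, a total that turned to 4 more in Sol in the whole lists. Towards EDL were the TEAD factor gene Tead1 (11 and 6, but 1 fewer in EDL among the 10000 highest peaks), Mef2a (9 and 6), the calcineurin subunit gene Ppp3ca (6 and 4), and the class IIa deacetylase genes Hdac4 (8 and 6) and Hdac9 (2 and 0), whose products repress MEF2. In the whole lists Hdac4 had 9 peaks in each muscle and Hdac9 had 4 in each. Towards Sol were the TEAD cofactor gene Vgll2 (6 and 10), Ppargc1a, the coactivator of mitochondrial genes (4 and 6, but 1 more in EDL among the 10000 highest), Ppara (2 and 4), and the nuclear receptor genes Esrrb (2 and 4, but 1 more in EDL in the whole lists), Esrrg (4 and 6) and Thrb (4 and 6). All 3 shared regions of Esrrg ranked higher in Sol, at percentiles of 7.0, 3.1 and 27.1 in EDL and 65.1, 65.1 and 53.9 in Sol.

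Among metabolic genes, those of glycolysis and glycogen leaned towards EDL. Of 32 genes 29 held a peak, with 85 peaks in EDL and 67 in Sol. More peaks in EDL were held by 15 and more in Sol by 8, and at least 2 more by 6 in EDL and 0 in Sol. Among them were Hk2, hexokinase 2 (6 and 2), and Phkg1, the muscle phosphorylase kinase subunit (3 and 0, but 3 and 2 in the whole lists). Others were Pgk1, phosphoglycerate kinase (3 and 1), Ldha, lactate dehydrogenase A (5 and 3), and Ppp1r3a, the glycogen-targeting phosphatase subunit (4 and 2). At Hk2 the promoter was higher in Sol, at percentile 78.5 in EDL and 85.0 in Sol, and the extra EDL peaks lay outside it.

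Fatty acid genes held 49 peaks in each muscle, with 4 genes higher in EDL and 4 in Sol of 25 with a peak. They held 25 in EDL and 31 in Sol among the 10000 highest peaks, with 3 genes higher in EDL and 8 in Sol, and 61 and 65 in the whole lists. Lpl, lipoprotein lipase, had 9 and 7, though 4 fewer in EDL among the 10000 highest, and Ucp3, a mitochondrial carrier, 6 and 4, whereas the fatty acid transporter gene Cd36 had 3 and 5 and Acsl1, acyl-CoA synthetase, 2 and 4, but 5 and 5 in the whole lists. Genes of the citrate cycle and respiratory chain held 43 peaks in EDL and 38 in Sol, with 6 of 29 genes higher in EDL and 1 in Sol, and none by 2 or more.

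All 22 genes of excitation and calcium release held a peak, with 76 peaks in EDL and 67 in Sol, and 6 had at least 2 more in EDL and 2 in Sol. Cacna1s, the voltage sensor of the T-tubule, had 7 and 4, Scn4a, the muscle sodium channel, 4 and 2, Trdn, triadin, 3 and 1, and the junctophilin genes Jph1 and Jph2 10 and 8 and 9 and 7, of which Jph1 had 11 in each muscle in the whole lists. The Cacna1s promoter peak, at percentile 59.2, was in EDL and Quad alone. Kcnn3, a calcium-activated potassium channel, had 2 and 4.

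Genes of the neuromuscular junction held 19 peaks in EDL and 24 in Sol. Of 16 shared regions 7 ranked 20 points or more higher in Sol and 2 in EDL, with a median difference of -16.4. Utrn, utrophin, contributed 5 of these 16, all ranked higher in Sol, among them intron 24 at percentiles 28.5 in EDL and 70.0 in Sol. Musk, the kinase that organises the synapse, had 0 peaks in EDL and 2 in Sol, both low, at percentiles 4.1 and 5.9.

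**Figure D4:**
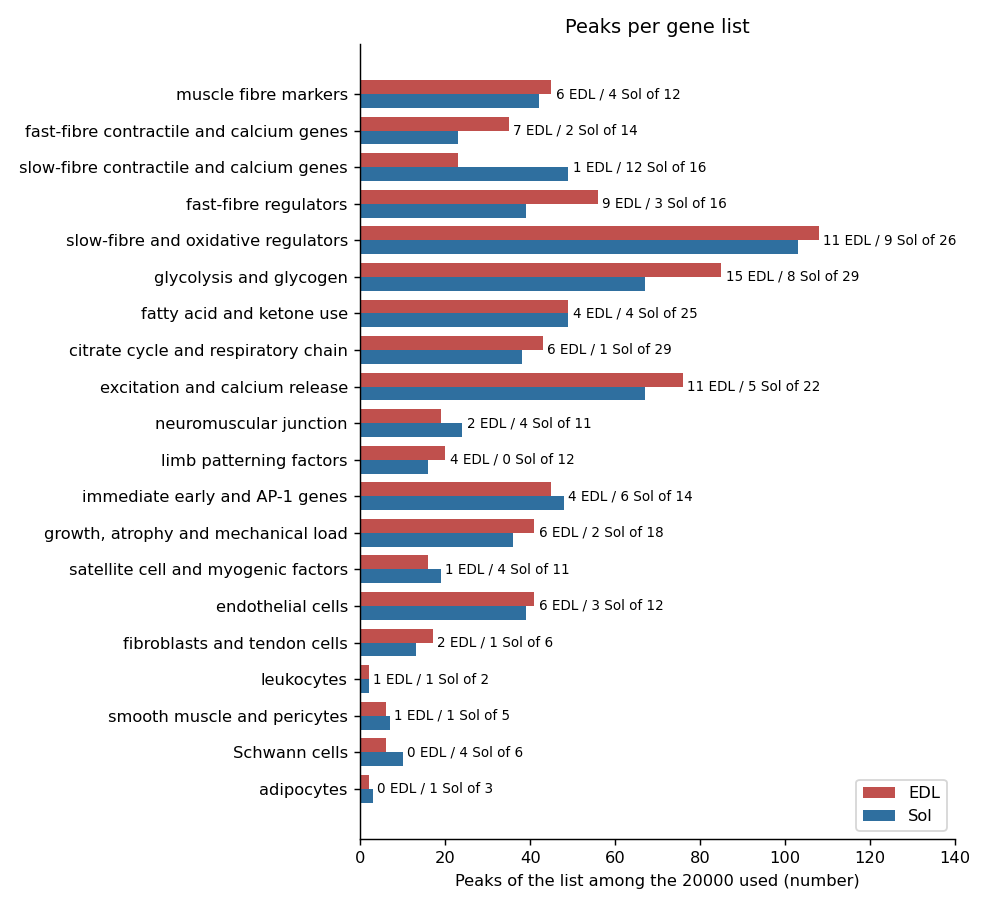
Bars give the number of peaks in EDL and in Sol for each of 20 gene lists, and the text beside them how many genes had more peaks in EDL and in Sol, of those with a peak. The slow-fibre contractile list stands at 23 peaks in EDL and 49 in Sol, and the fast-fibre list at 35 and 23.

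Several lists differed little. Limb patterning genes held 20 peaks in EDL and 16 in Sol, with 18 of 30 members at 0 in both. Immediate early and AP-1 genes, which respond to activity and to handling of tissue, held 45 and 48. Within that list Junb had 3 and 1, and Fos and Jun each 7 and 9, an order that the whole lists turned for both genes and for the list. The Fos promoter held an EDL peak 307 bp upstream of the TSS (percentile 84.7) and a Sol peak 47 bp upstream (78.2) that did not overlap. Genes of growth, atrophy and load held 41 and 36, among them Ddit4 (8 and 5), Eef1a2 (4 and 2) and Fbxo30 (1 and 3).

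Markers of other cell types in whole muscle were counted in the same way. Endothelial genes, 12 of 12 with a peak, held 41 peaks in EDL and 39 in Sol, but 7 of their 26 shared regions ranked 20 points or more higher in Sol and 2 in EDL, with a median difference of -11.2. Among the 10000 highest peaks the endothelial list had 7 more peaks in Sol. Erg and Flt1 had 8 in EDL and 5 in Sol, of which Flt1 turned both in the whole lists and among the 10000 highest. Kdr had 3 and 8, but 10 and 12 in the whole lists, and Emcn 0 and 2. Fibroblast and tendon genes held 17 and 13 with 6 of 12 members at 0, and Col1a2 had 4 and 0, all at or below percentile 16.1, and 6 and 5 in the whole lists. Satellite cell and myogenic genes held 16 and 19, Schwann cell genes 6 and 10, smooth muscle genes 6 and 7, adipocyte genes 2 and 3, and leukocyte genes 2 and 2 with 8 of 10 members at 0. Their part in the differences above was not tested.

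The Quad and Dia lists, which were not used to choose any peak, were then searched for the peaks of each side. Of the EDL side, 48.6% (47.3% to 49.97%) overlapped a Quad peak and 27.2% (26.02% to 28.4%) a Dia peak, a difference of 21.4 percentage points. Of the Sol side, 38.6% (37.3% to 39.9%) overlapped a Dia peak and 28.5% (27.3% to 29.8%) a Quad peak, a difference of 10.1 points. In neither Quad nor Dia were 39.4% of the EDL side and 49.1% of the Sol side. With whole lists, in which the Quad list is the longest at 40337 peaks against 21582 for Dia, the order on the Sol side turned, with a Dia minus Quad difference of -15.6 points.

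Of the 569 genes with at least 2 more peaks in EDL, 67.0% had more peaks in Quad than in Dia and 13.5% fewer. Of the 561 genes with at least 2 more in Sol, 24.1% had more in Quad and 48.7% more in Dia. Over all genes these shares were 22.6% and 21.3%, but all genes were not matched to these sets for their number of peaks. The fast-fibre contractile list held 42 peaks in Quad and 17 in Dia, and the slow-fibre contractile list 19 in each. In shared regions ranked higher in Sol, Dia also tended to rank higher, with a median Quad minus Dia of -7.30 points over 1042 regions. In those ranked higher in EDL the median was 0.34 over 869 regions, against -1.11 over all 10912 regions listed in all 4 muscles. Spearman's rho between the EDL minus Sol and Quad minus Dia differences was 0.0783 over these 10912 regions. It was -0.0297 at promoters, 0.219 inside genes and 0.148 between genes, so the 2 differences were at most weakly related.

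Motifs were counted in the peaks of each side. The letters searched on both strands were CAGCTG for the E-box, GGAATG for TEAD, TGGAAA for NFAT, TCAAGGTCA for ERR, AAGGTCA for nuclear receptors, TGACTCA or TGAGTCA for AP-1, TGCTGAC for MAF, GNACANNNTGTNC for the glucocorticoid receptor, AGGTGTGA for T-box, TGTGGTT for RUNX and GGGCGG for SP and KLF. The ERR motif contains the nuclear receptor motif, and the MAF motif can overlap AP-1. MEF2 and SRF were searched as 10-letter patterns in which some positions accept more than 1 base, and are given by name only.

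The MAF motif was in 7.28% of the EDL side and 4.80% of the Sol side, a difference of 2.48 percentage points (Newcombe 95% interval 1.57 to 3.40). It was in 4.46% of the shared EDL peaks, and in 3.60% and 3.39% of equal windows 2 kb downstream of the EDL and Sol sides. Leaving out promoters gave 8.11% and 5.13% (difference 1.92 to 4.04). Of all peaks of the EDL and Sol sides, 6.61% and 4.28% held a MAF match and no AP-1 match. In shared regions ranked 20 points or more higher, the MAF motif was in 7.79% of those higher in EDL and 4.66% of those higher in Sol. In whole peaks of the Quad and Dia sides, which are of unequal width, the order was the other way, at 5.42% and 6.23% (-1.60 to -0.0223). In equal windows of 200 bp those shares were 5.69% and 5.50% (-0.584 to 0.961), and 7.07% and 4.70% for the EDL and Sol sides (1.46 to 3.28).

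The glucocorticoid receptor motif was in 1.503% of the EDL side and 0.809% of the Sol side (difference 0.283 to 1.12), and in 1.32% of the Quad side and 0.777% of the Dia side. The interval of the difference included 0 for Quad and Dia peaks that were not on the EDL or Sol side (1.16% and 0.784%, -0.0173 to 0.790) and for shared regions ranked higher in EDL and in Sol (1.79% and 1.496%, -0.605 to 1.25). The SP and KLF motif was less common on the EDL side, at 16.5% against 22.1% (-7.19 to -4.16), and GC content was 53.7% and 55.7%. NFAT differed by -1.61 points (-3.14 to -0.0708) and by -3.05 (-4.82 to -1.29) without promoters. Its shares were 19.1% on the EDL side and 20.7% on the Sol side, and 17.8% and 17.4% in windows 2 kb downstream. Between the Quad and Dia sides NFAT differed by -5.64 (-6.97 to -4.30) in whole peaks, which are of unequal width. In equal windows of 200 bp it differed by -2.02 (-3.33 to -0.707). Between shared regions ranked higher in EDL and in Sol it differed by 0.082 (-2.56 to 2.76). The nuclear receptor motif differed by 0.942 (0.0469 to 1.84), an interval that included 0 without promoters (-0.117 to 2.01). The MEF2 motif, at 5.55% and 5.59%, and the E-box, at 22.8% and 22.6%, were on both sides above the 1.77% and 9.88% of windows 2 kb from the EDL side, but the interval of the difference between EDL and Sol included 0 for both. It also included 0 for TEAD, ERR, AP-1, SRF, T-box and RUNX.

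**Figure D5:**
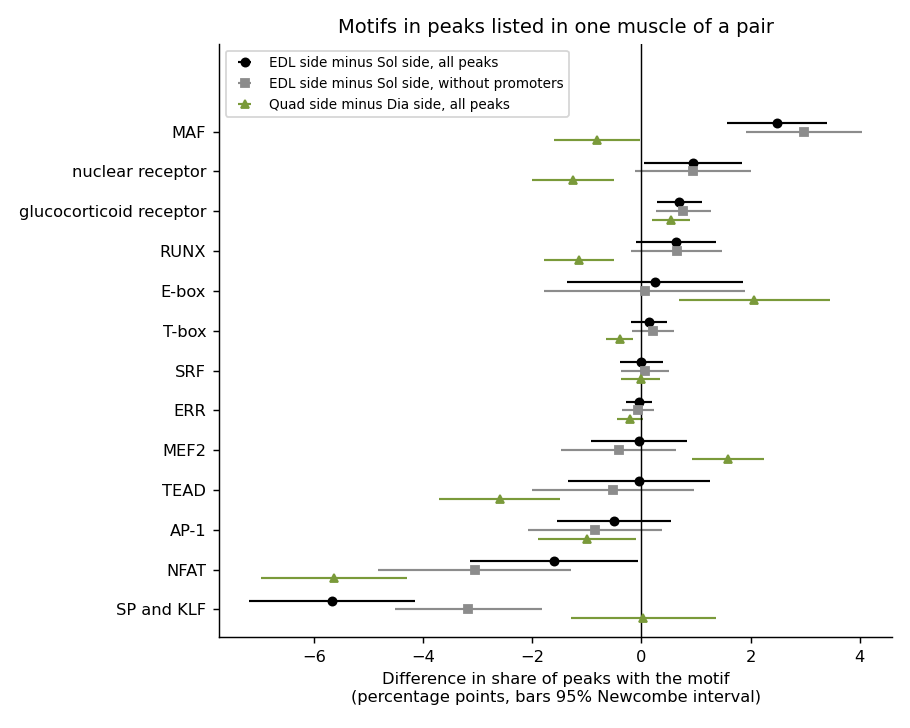
The difference in the share of peaks with each motif is plotted in percentage points with its 95% Newcombe interval, for the EDL side minus the Sol side with and without promoters and for the Quad side minus the Dia side. MAF stands at 2.48 for EDL minus Sol and at -0.809 for Quad minus Dia, and SP and KLF at -5.67 for EDL minus Sol.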

How the data were processed

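Each muscle had 1 ATAC-seq library of 42 bp paired reads. The authors aligned reads with Bowtie2 and called peaks per library with HOMER (genome mm10, 1 tag per position). The deposited Peak Score is a signal, tags per peak scaled by library size, and each peak has a Gene Name by nearest TSS. Depth is inferred from score steps, assuming scaling to 10 M tags.

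Files were read with Python 3.11.15, pandas 2.3.3 and pysam 0.24.0. The 20000 highest peaks per list were kept, percentiles computed within that list, and peaks sharing at least 1 bp joined. Named were the 12 genes per direction with the largest difference in peaks, the 8 shared regions furthest apart and the 6 highest one-sided distal peaks, with members of 20 gene lists. A few of these are not reported here. The members and lists were chosen with earlier results of these data known. Intervals are Wilson, Newcombe and exact Poisson at 95% and cover counting error only. Counting steps were tested on simulated data. Alternatives were the whole lists, the 10000 highest peaks, 50% reciprocal overlap, a score ratio, peaks within 50 kb, no promoters, 200 bp motif windows and, added after seeing the data, the gene holding the peak. Sequences are from RefSeq GRCm38.p6.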

Additional observations from a re-analysis of the deposited data

How the results depend on the processing

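No paired analysis was possible because each muscle has 1 library and no test was run, and no library could be left out. With whole lists 52.7% of regions were shared, with the 10000 highest peaks 62.0%, and with 50% reciprocal overlap 48.2%. In that order of settings the promoter share was 10.7%, 31.8% and 23.9% on the EDL side and 11.6%, 35.5% and 25.7% on the Sol side. The EDL side's Quad minus Dia difference was 39.8, 13.2 and 13.0 points, and 25.5 without promoters. The Sol side's Dia minus Quad difference was -15.6, 7.49 and 5.37 points, so it reversed with whole lists. Genes with more peaks in EDL numbered 4273 (27.9%) with whole lists and 1669 with the 10000 highest, and those with more in Sol 3605 (23.5%) and 1742. Shared regions ranked higher numbered 801 for EDL and 892 for Sol with the 10000 highest, and 26 and 23 with a score ratio of 2 or more. The cause of these changes was not tested.

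With whole lists, peaks in EDL minus Sol reversed for slow-fibre and oxidative regulators (-4), immediate early genes (11), smooth muscle (3), adipocytes (2), Esrrb (1), Flt1 (-4), Fos (3) and Jun (2). With the 10000 highest they reversed for satellite cell genes (3), endothelial genes (-7), fibroblasts (-1), Eya4 (-1), Flt1 (-2), Lpl (-4), Ppargc1a (1) and Tead1 (-1). Eya4 also reversed within 50 kb (-1), and Mir1904 under the gene that holds the peak (-1). The genes named, including some not reported here, were compared over all settings. Of these values 278 stayed within 1.5 times, 146 moved further or to no difference and 11 reversed. The muscles had equal counts with whole lists for Mir1904, Hdac4, Hdac9, Jph1, Acsl1 and Eya4. Genes whose difference fell to 1 peak with whole lists included Myl1, Phkg1, Casq2, Atp2a2, Trdn, Ldha and Gm30173. The fast and slow contractile lists, the fast-fibre regulators and glycolysis kept their direction with whole lists, the 10000 highest peaks, peaks within 50 kb and the gene that holds the peak. Within 50 kb, however, the fast-fibre regulators fell from 17 more peaks in EDL to 3 more, with 6 genes higher in EDL and 5 in Sol. The differences for MAF, the glucocorticoid receptor, the nuclear receptor, NFAT and SP and KLF kept their sign without promoters, in 200 bp windows and with whole lists, where SP and KLF moved to -3.17 without promoters and -1.87 with whole lists. Those of MEF2, the E-box, TEAD and SRF, all near 0, changed sign in at least 1 of these settings.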

Other observations

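Genes were also grouped by words in their RefSeq descriptions, a grouping chosen after the data were seen and given here as counts. Of 113 genes described as myosin or actin family members with a peak, 8 (7.08%) had at least 2 more peaks in EDL and 16 (14.2%) at least 2 more in Sol, beside 4.44% and 4.38% of all genes. Some of these are no fibre-type genes, such as the nonmuscle myosin gene Myh10, with 2 peaks in EDL and 6 in Sol, and Myo10, an unconventional myosin of filopodia, with 11 and 6. Of 328 microRNA genes, 26 (7.93%) had at least 2 more in EDL and 18 (5.49%) in Sol, with Mir190a at 4 and 0. Transcription factor genes numbered 29 and 28 of 768, protein kinases 23 and 29 of 497 and solute carriers 13 and 9. Among the last, Slc16a1, a transporter of lactate and other monocarboxylates, had 2 peaks in EDL and 6 in Sol.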
